A study of Mus musculus with 18 samples.

Results

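The glutathione transferases Gsta2, Gsta3, Gsta4, Gstm1 and Gstm2, the plasma glutathione peroxidase Gpx3, the aldo-keto reductase Akr1c13 and the flavin-containing monooxygenase Fmo2 were followed in mouse ovaries across genotype and hormone treatment. These 8 genes were picked as detoxifying enzymes with results of these arrays already in view, and each is represented by the brightest of the probe sets annotated to it alone. They are 8 of 18193 genes with such a probe set, and all 8 passed the filter on low signals that left 12713 genes. They were chosen by their measured values on these arrays, and the record of the choice names no comparison. Akr1c13 after PMSG in Pik3cd+/- ovaries and Fmo2 after PMSG in Pik3cd-/- ovaries had already been seen among the largest falls, so those changes are described without a test. All other adjusted p-values of the 8 genes are descriptions too, since their choice was not independent of these arrays. Other comparisons of Akr1c13 and Fmo2 in part reuse the arrays by which they had been seen.

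The study measured total RNA of whole ovaries from female mice on a mixed C57B6J/S129 background on 18 Affymetrix arrays, 3 for each of 6 groups. All mice were 21 days old at the start and carried either 1 functional copy of Pik3cd (Pik3cd+/-) or none (Pik3cd-/-), so the control group also has a disrupted allele. The product of Pik3cd, p110 delta, is a catalytic subunit of phosphoinositide 3-kinase, and its loss was not limited to the ovary by any label. Each genotype was left untreated, or received PMSG, which acts largely as FSH does, or oestradiol (E2). PMSG was a single intraperitoneal dose of 10 IU, 44 hours before the ovaries were taken. Oestradiol was given as 3 injections of 0.03 ml at 24-hour intervals, and ovaries were taken at 72 hours, counted from the start. The oestradiol concentration is not stated, and no group received vehicle, so a treatment difference includes injection and the hours that passed. The labels call the 3 arrays of a group biological replicates without saying whether ovaries were pooled.

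Glutathione transferases join the tripeptide glutathione to reactive compounds, among them the aldehydes left by lipid peroxidation, and several also act on steroids. Glutathione peroxidases use the same tripeptide to reduce peroxides, aldo-keto reductases convert aldehydes, ketones and steroid hormones, and flavin-containing monooxygenases oxygenate nitrogen and sulphur in foreign compounds. In the ovary, steroid synthesis in follicles and corpora lutea produces reactive oxygen, and glutathione transferases are abundant in steroid-making cells.

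The arrays had medians of 48.4 to 50.9 intensity units, and an array correlated with its group mates at a mean of 0.989 to 0.997. Of 6 probe sets for Pik3cd, 2 were lower in Pik3cd-/- ovaries in all 3 states, and the clearest ran from 61.4 to 73.1 in the heterozygous and from 19.1 to 28.8 in the null arrays. Ovarian identity was borne out by the granulosa markers, whose mean log2 level lay between 9.97 and 11.3 on every array. Pik3cd-/- E2 replicate 2 stood apart from its group, with an adipocyte marker mean of 5.09 against 10.3 and 11.5. Pik3cd-/- untreated replicate 2 had the lowest granulosa mean of all arrays. The mean of 4 oviduct markers was 8.23 in Pik3cd+/- untreated replicate 2, against 5.66 and 6.22 in its mates, and 8.17 in Pik3cd+/- PMSG replicate 1, against 6.16 and 5.53. The signal of the oviduct marker Ovgp1 ran from 19.5 to 3987 over the arrays. No probe set was at 0, and the lowest deposited value was 3.49. With 3 arrays a group, precision is limited throughout. Differences are given as log2 of the signal plus 8.58 intensity units ± SE of the limma model, signals as intensity units with mean ± SD (n = 3), and adjusted p-values (padj) are from limma over 12713 genes. A log2 difference on this scale understates the change of a dim gene.

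**Figure D1:**
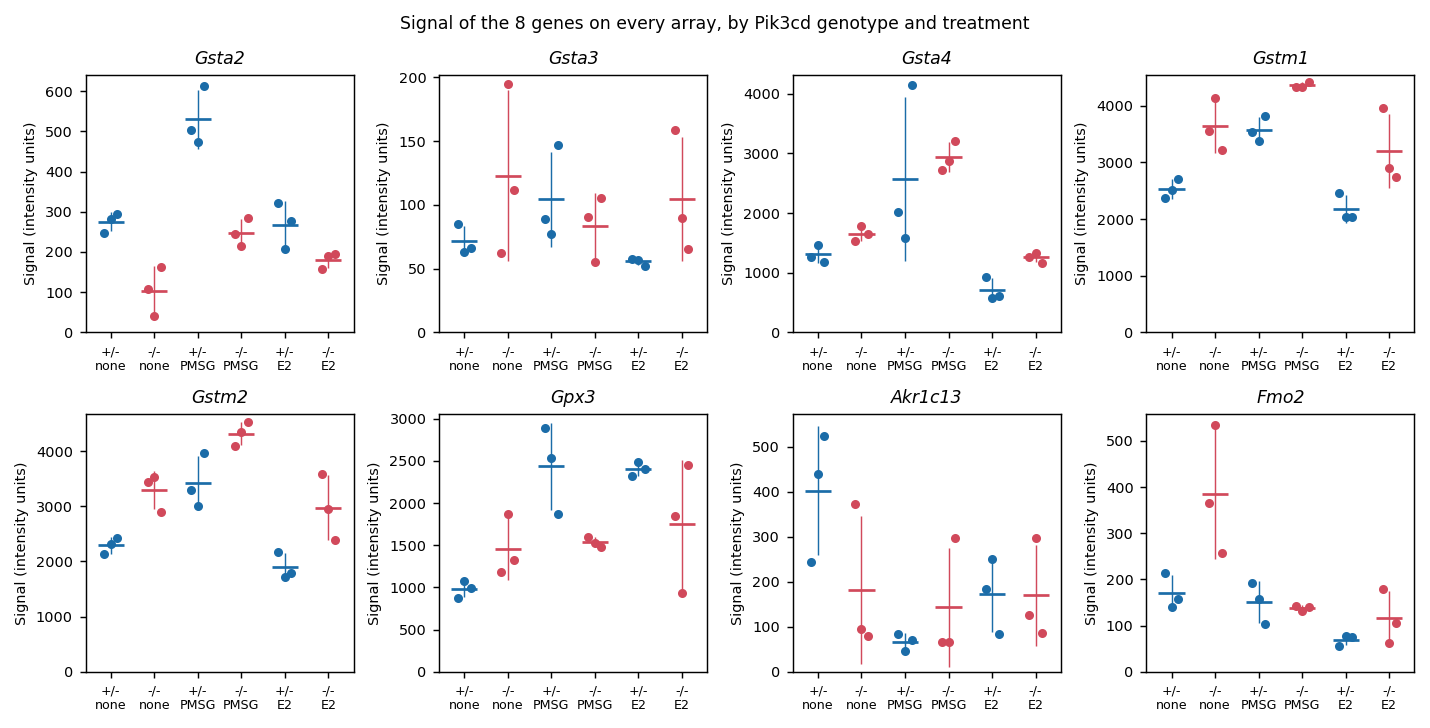
Signal in intensity units (linear axis from 0) of each of the 8 genes on all 18 arrays, by Pik3cd genotype (blue +/-, red -/-) and treatment, with points for arrays, horizontal bars for group means and vertical lines for 1 SD. Gstm1 and Gstm2 have similar profiles with their highest means (4366 and 4323) in Pik3cd-/- PMSG ovaries, Gsta2 is highest in Pik3cd+/- PMSG ovaries, and Gpx3 is lowest in untreated Pik3cd+/- ovaries.

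The mu-class transferases Gstm1 and Gstm2, cytosolic enzymes encoded side by side, rose after PMSG in Pik3cd+/- ovaries and were higher in Pik3cd-/- than in Pik3cd+/- ovaries after E2. In the RefSeq gene order (GRCm38.p6) they lie on chromosome 3 in the run Gstm7, Gstm6, Gstm3, Gstm2, Gstm1, Gstm4. Their promoter windows, from 250 bases before to 50 after the start site, are shown because the pair moved together. Both are on the minus strand of GRCm38.p6, from RefSeq, at chr3:108017924-108018223 for the first of 2 Gstm1 start sites and at chr3:107986371-107986670 for Gstm2. The longest runs of bases that the windows share, 2 runs of 9 bases each, are in capitals.
Gstm1: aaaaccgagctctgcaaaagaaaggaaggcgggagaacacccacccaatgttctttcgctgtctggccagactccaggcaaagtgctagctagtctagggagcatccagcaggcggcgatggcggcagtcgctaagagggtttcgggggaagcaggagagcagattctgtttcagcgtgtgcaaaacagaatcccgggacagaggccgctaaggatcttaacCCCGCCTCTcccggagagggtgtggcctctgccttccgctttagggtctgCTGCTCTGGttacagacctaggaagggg
Gstm2: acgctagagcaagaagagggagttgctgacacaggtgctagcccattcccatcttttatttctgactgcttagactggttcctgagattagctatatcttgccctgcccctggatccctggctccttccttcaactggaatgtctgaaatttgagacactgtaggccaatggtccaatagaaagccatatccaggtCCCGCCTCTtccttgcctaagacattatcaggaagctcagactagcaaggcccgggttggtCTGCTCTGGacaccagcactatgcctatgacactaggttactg
The first run begins 28 bases before the Gstm1 start and 54 before that of Gstm2, and the other lies after the starts in both. Counted from the second Gstm1 start site, the same 2 runs begin 183 and 133 bases before the start. The window of that site shares 3 runs of 9 bases with Gstm2. How often unrelated windows share runs of this length was not tested.

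Signals of Gstm1 were 2373, 2513 and 2708 in untreated Pik3cd+/- ovaries and 3554, 4134 and 3221 in untreated Pik3cd-/- ovaries. After PMSG they were 3545, 3376 and 3811 in Pik3cd+/- and 4336, 4336 and 4426 in Pik3cd-/- ovaries. After E2 they were 2455, 2040 and 2034 against 3960, 2901 and 2747. In every state each Pik3cd-/- array lay above each Pik3cd+/- array. The genotype difference was 0.52 ± 0.12 untreated (padj = 0.0394), 0.29 ± 0.12 after PMSG (padj = 0.214) and 0.54 ± 0.12 after E2 (padj = 0.0107). PMSG raised Gstm1 by 0.50 ± 0.12 in Pik3cd+/- ovaries (padj = 0.0127), from 2531 ± 168 to 3577 ± 220, and the change in Pik3cd-/- ovaries was 0.27 ± 0.12 (padj = 0.237). E2 gave -0.22 ± 0.12 and -0.19 ± 0.12 in the heterozygous and null ovaries (padj = 0.367 and 0.442). The order of the means ran from Pik3cd+/- E2 through Pik3cd+/- untreated, Pik3cd-/- E2, Pik3cd+/- PMSG and Pik3cd-/- untreated to Pik3cd-/- PMSG. Of these neighbours only Pik3cd+/- untreated and Pik3cd-/- E2, and the last pair, had arrays that did not overlap. The untreated genotype call ended when any array but Pik3cd-/- untreated replicate 3 was left out (padj of up to 0.185), and the PMSG call ended without Pik3cd+/- untreated replicate 1 (0.45, padj = 0.0614).

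Gstm2 gave 2133, 2318 and 2427 in untreated Pik3cd+/- ovaries and 3449, 3529 and 2904 in untreated Pik3cd-/- ovaries. After PMSG its signals were 3299, 3007 and 3965 against 4101, 4341 and 4526, and after E2 they were 2180, 1716 and 1798 against 3582, 2953 and 2393. As for Gstm1, no heterozygous array reached the lowest null array of its state. The genotype difference passed after E2 (0.63 ± 0.13, padj = 0.00843), and was 0.52 ± 0.13 untreated (padj = 0.0539) and 0.34 ± 0.13 after PMSG (padj = 0.179). PMSG raised Gstm2 from 2292 ± 149 to 3424 ± 491 in Pik3cd+/- ovaries (0.57 ± 0.13, padj = 0.0112). In Pik3cd-/- ovaries PMSG gave 0.40 ± 0.13 (padj = 0.133), and E2 gave -0.28 ± 0.13 and -0.16 ± 0.13 in the 2 genotypes (padj = 0.31 and 0.567). Along the order of its 6 means, which again began with Pik3cd+/- E2 and ended with Pik3cd-/- PMSG, only Pik3cd+/- PMSG and Pik3cd-/- PMSG did not overlap as neighbours. The PMSG call ended without Pik3cd+/- untreated replicate 1 (0.52, padj = 0.0557), and the untreated genotype difference passed without Pik3cd-/- untreated replicate 3 (0.61, padj = 0.0306). The calls of both genes after E2 held with each array left out in turn, at 0.38 to 0.64 for Gstm1 and 0.49 to 0.78 for Gstm2.

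Gstm1 and Gstm2 correlated at r = 0.983 over the 18 arrays and at 0.888 after group means were taken off. Gstm1 has 3 other probe sets, which had the sign of the chosen set in 9, 8 and 8 of 9 comparisons. Mu-class genes are similar in sequence and probe sets of one may take up signal from another, so the separate changes of Gstm1 and Gstm2 are uncertain. Oocyte marker medians, like both genes, were higher in Pik3cd-/- than in Pik3cd+/- ovaries in every state. Of 10 such markers, 4 were higher in Pik3cd-/- ovaries untreated, 9 after PMSG and 10 after E2. None was lower, and the medians were 0.70, 1.21 and 0.99. Gstm1 and Gstm2 differed least after PMSG (0.29 and 0.34), where the median of these markers was largest. Their mean log2 level ran from 10.4 to 10.6 in untreated Pik3cd+/- and from 11.03 to 11.3 in untreated Pik3cd-/- arrays. After PMSG it ran from 9.52 to 9.71 and from 10.7 to 10.9, and after E2 from 9.82 to 10.0 and from 10.4 to 11.2. With PMSG in Pik3cd+/- ovaries, where Gstm1 and Gstm2 rose, 8 of the 10 fell, with a median of -0.92. Of 5 theca and steroidogenic markers, 4 rose after PMSG in Pik3cd+/- (median 2.17) and 3 in Pik3cd-/- ovaries (1.84), and none fell. After E2, 1 fell in Pik3cd+/- (median -0.76) and none in Pik3cd-/- ovaries (-0.38). The mean of these 5 correlated with Gstm1 and Gstm2 at r = 0.582 and 0.616 over the 18 arrays, and at 0.241 and 0.303 with group means taken off. For the luteal marker mean it was 0.528 and 0.511, and -0.04 and -0.202. Over the 18 arrays the oocyte mean correlated with Gstm1 and Gstm2 at r = 0.394 and 0.377. With group means taken off, it correlated at 0.471 and 0.575, and at 0.722 and 0.652 without Pik3cd-/- E2 replicate 2. The stroma mean was at 0.575 and 0.478 over the 18 arrays, and at 0.104 and -0.232 with group means taken off. For the surface epithelium mean it was 0.514 and 0.383, and 0.408 and 0.029. The part of any of these cells in the result was not tested. A fall in a cell type and a fall in RNA per cell cannot be told apart in whole ovaries, for these or the other genes.

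Of the alpha-class transferases, Gsta4, which conjugates 4-hydroxynonenal from oxidised lipids, was highest after PMSG and lowest after E2 in Pik3cd+/- ovaries. Its signals were 1267, 1471 and 1188 in untreated Pik3cd+/- and 1531, 1786 and 1644 in untreated Pik3cd-/- ovaries. PMSG ovaries gave 2010, 1575 and 4140 in Pik3cd+/- and 2718, 2867 and 3209 in Pik3cd-/-, and E2 ovaries gave 933.9, 578.4 and 617.2 against 1264, 1334 and 1171. Every PMSG array lay above every untreated array of its own genotype, and the E2 arrays of Pik3cd+/- and Pik3cd-/- ovaries both lay wholly below theirs. PMSG gave 0.85 ± 0.25 in Pik3cd+/- (padj = 0.0297) and 0.82 ± 0.25 in Pik3cd-/- ovaries (padj = 0.0933). The first rests in part on Pik3cd+/- PMSG replicate 3, without which it was 0.45 (padj = 0.0771), and it also ended without any 1 of the untreated Pik3cd+/- arrays. E2 gave -0.90 ± 0.25 in Pik3cd+/- (padj = 0.0792) and -0.39 ± 0.25 in Pik3cd-/- ovaries (padj = 0.455). After E2 Gsta4 was higher in Pik3cd-/- than in Pik3cd+/- ovaries, 1256 ± 81.9 against 709.8 ± 195 (0.85 ± 0.25, padj = 0.0329). That call ended in 4 of 6 cases when an array was left out, without Pik3cd+/- E2 replicates 2 or 3 and without Pik3cd-/- E2 replicates 1 or 2 (padj of up to 0.126). The genotype differences untreated and after PMSG were 0.34 ± 0.25 and 0.31 ± 0.25 (padj = 0.469 and 0.587), the latter 0.71 (padj = 0.0371) without Pik3cd+/- PMSG replicate 3. In the order of means, Pik3cd+/- E2 and Pik3cd-/- E2 did not overlap, nor did the untreated groups of both genotypes, while the other neighbours did. Gsta4 correlated with the theca and steroidogenic marker mean at r = 0.748 over the 18 arrays and at 0.195 with group means taken off. For the granulosa mean it was 0.497 and 0.484, and for the stroma mean 0.386 and -0.441. Without Pik3cd-/- E2 replicate 2 the latter of each became 0.477 and -0.596. Pik3cd+/- PMSG replicate 3 had the highest granulosa mean of all arrays, 11.3 against 10.7 in each of its group mates. The part of any of these cells in the Gsta4 result was not tested.

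Gsta2, an alpha-class enzyme that also reduces lipid hydroperoxides, went the other way between genotypes, with its lowest mean in untreated Pik3cd-/- ovaries. There its signals were 108.1, 40.7 and 161.4, against 248.1, 283.1 and 293.3 in untreated Pik3cd+/- ovaries. PMSG arrays gave 503.5, 473.9 and 612.5 in Pik3cd+/- and 243.4, 214.0 and 284.0 in Pik3cd-/- ovaries, and E2 arrays gave 321.6, 206.7 and 276.1 against 158.3, 190.2 and 193.9. In each state all Pik3cd-/- arrays lay below all Pik3cd+/- arrays. The genotype difference was -1.51 ± 0.30 untreated (padj = 0.0275), -1.08 ± 0.30 after PMSG (padj = 0.0588) and -0.53 ± 0.30 after E2 (padj = 0.225). PMSG raised Gsta2 in both genotypes, by 0.92 ± 0.30 in Pik3cd+/- (padj = 0.0474) and by 1.36 ± 0.30 in Pik3cd-/- ovaries (padj = 0.0278). E2 gave -0.05 ± 0.30 in Pik3cd+/- and 0.93 ± 0.30 in Pik3cd-/- ovaries (padj = 0.957 and 0.239). From the lowest mean the order was untreated, E2 and PMSG among Pik3cd-/- ovaries and then E2, untreated and PMSG among Pik3cd+/- ovaries. In it Pik3cd-/- E2 and PMSG did not overlap, nor did Pik3cd+/- untreated and PMSG.

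The Pik3cd+/- PMSG call of Gsta2 ended whichever of its 6 arrays was left out (padj of up to 0.15). The Pik3cd-/- PMSG call ended without any 1 of the Pik3cd-/- PMSG arrays (padj of up to 0.127). Without Pik3cd-/- untreated replicate 2, the array with 40.7, the untreated genotype difference was -1.01 (padj = 0.0768), and the call also ended without any 1 untreated Pik3cd+/- array (padj of up to 0.0943). The same array had the lowest granulosa marker mean, 9.97 against 10.5 and 10.7 in its group mates, and over all arrays Gsta2 correlated with that mean at r = 0.771 after group means were taken off. Without Pik3cd-/- E2 replicate 2 it was 0.774. Gsta2 also ran against the endothelial (-0.541, and -0.835 without that array) and surface epithelium means (-0.566 and -0.78). With group means left in, it correlated over the 18 arrays with the granulosa mean at 0.755 and with the oocyte mean at -0.773. The part of any of these cells in the Gsta2 result was not tested. Of the 9 granulosa markers, 1 was higher and 1 lower in untreated Pik3cd-/- than in Pik3cd+/- ovaries, with a median of -0.34.

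Gsta3, an alpha-class enzyme known for detoxifying aflatoxin, was called in none of the 9 comparisons. Its signals were 84.9, 63.4 and 65.8 in untreated Pik3cd+/- and 62.0, 195.1 and 111.6 in untreated Pik3cd-/- ovaries. PMSG arrays gave 89.2, 77.2 and 146.6 against 90.2, 55.5 and 105.6, and E2 arrays gave 57.8, 57.1 and 52.2 against 159.1, 89.8 and 65.6. Arrays of a group differed by up to 54.7% of the mean (SD over mean), so the 95% intervals were wide, from -0.14 to 1.33 for the untreated genotype difference (0.60 ± 0.35, padj = 0.352). The genotype differences after PMSG and E2 were -0.28 ± 0.35 and 0.74 ± 0.35 (padj = 0.741 and 0.147). PMSG gave 0.46 ± 0.35 in Pik3cd+/- and -0.42 ± 0.35 in Pik3cd-/- ovaries, and E2 gave -0.31 ± 0.35 and -0.17 ± 0.35 (padj = 0.382, 0.54, 0.714 and 0.831). Between neighbours in the order of means only Pik3cd+/- E2, the lowest, and Pik3cd+/- untreated did not overlap. A dimmer second probe set had the same sign in 8 of 9 comparisons.

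Gpx3, the secreted selenium-dependent glutathione peroxidase of extracellular fluid, rose after both hormones in Pik3cd+/- ovaries. Signals there were 877.7, 1074 and 997.5 untreated, 2897, 2539 and 1876 after PMSG, and 2319, 2482 and 2402 after E2. Pik3cd-/- ovaries gave 1179, 1875 and 1327 untreated, 1598, 1532 and 1481 after PMSG, and 1852, 933.8 and 2454 after E2. Untreated Pik3cd+/- arrays lay below all arrays of every other group except Pik3cd-/- E2 replicate 2. In Pik3cd+/- ovaries the mean went from 983.1 ± 99.0 to 2438 ± 518 with PMSG (1.28 ± 0.26, padj = 0.00489) and to 2401 ± 81.5 with E2 (1.29 ± 0.26, padj = 0.0222). In Pik3cd-/- ovaries PMSG gave 0.10 ± 0.26 and E2 0.18 ± 0.26 (padj = 0.865 and 0.747). The genotype difference was 0.54 ± 0.26 untreated, -0.64 ± 0.26 after PMSG and -0.56 ± 0.26 after E2, and none of these passed (padj = 0.248, 0.194 and 0.134). Only untreated Pik3cd+/- and untreated Pik3cd-/- did not overlap among neighbours in the order of means, which ended with Pik3cd+/- E2 and Pik3cd+/- PMSG.

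The PMSG call of Gpx3 held with each array left out in turn, at 1.15 to 1.46 (padj of up to 0.0286). The E2 call lay at the threshold without untreated Pik3cd+/- replicate 2 (padj = 0.05, rounded) and ended without any other array (padj of up to 0.0868), while its size stayed between 1.21 and 1.35. The genotype difference after E2 was -0.86 (padj = 0.0182) without Pik3cd-/- E2 replicate 3. Macrophage markers moved with Gpx3 within groups and after PMSG in Pik3cd+/- ovaries. Of 8, 4 rose after PMSG in Pik3cd+/- ovaries, and none fell, with a median of 0.98. None was called after E2 in Pik3cd+/- ovaries (median 0.71) or between genotypes in any state. Their genotype medians were 0.61 untreated, -0.12 after PMSG and 0.12 after E2. Their mean log2 level ran from 6.86 to 7.11 in untreated Pik3cd+/- arrays, from 7.54 to 8.37 after PMSG and from 7.52 to 7.66 after E2. In Pik3cd-/- ovaries it ran from 7.27 to 8.05 untreated, from 7.73 to 8.06 after PMSG and from 6.69 to 8.47 after E2. With group means taken off, Gpx3 and the macrophage mean correlated at r = 0.96 over the 18 arrays, and at 0.9 without Pik3cd-/- E2 replicate 2, which was lowest in both within its group. The means of adipocyte, stroma and surface epithelium markers correlated with Gpx3 at 0.865, 0.863 and 0.855, and at 0.586, 0.647 and 0.653 without that array. For the endothelial and smooth muscle means it was 0.806 and 0.767, and 0.468 and 0.317 without that array. For the oviduct mean it was 0.492, and 0.703 without that array. With group means left in, Gpx3 correlated over the 18 arrays with the macrophage mean at 0.814 and with the smooth muscle mean at 0.697. Of 6 smooth muscle markers, 2 rose after PMSG in Pik3cd+/- ovaries and none fell (median 0.57). Without the arrays high in oviduct markers, Pik3cd+/- untreated replicate 2 or PMSG replicate 1, the PMSG difference of Gpx3 was 1.35 or 1.15 and still passed. The part of these cells in the result was not tested.

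**Figure D2:**
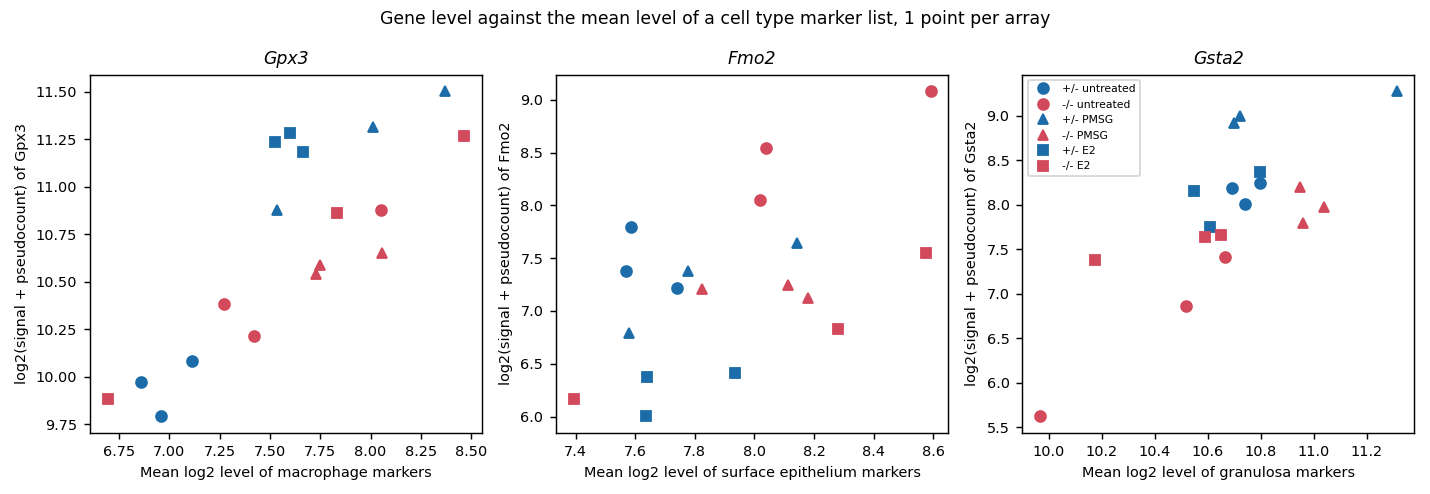
Level of Gpx3, Fmo2 and Gsta2 (log2 of signal plus pseudocount) against the mean log2 level of macrophage, surface epithelium and granulosa markers, 1 point per array, with colour for genotype (blue +/-, red -/-) and shape for treatment. Arrays with more macrophage signal within a group have more Gpx3 (r = 0.96 with group means taken off), and the array with the lowest granulosa mean (9.97) has the lowest Gsta2.

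Akr1c13 belongs to a group of aldo-keto reductases that act on steroids and xenobiotics, in a run on chromosome 13 with Akr1c14, Akr1c18, Akr1c19, Akr1c12 and Akr1c6. It was the gene with the most negative log2 difference of the 12713 after PMSG in Pik3cd+/- ovaries, the comparison in which it had already been seen. The promoter window is shown because it holds a FoxO site (capitals, on the opposite strand, 28 bases before the start), a motif of the transcription factors that phosphoinositide 3-kinase signalling restrains. It lies at chr13:4190937-4191236 on the plus strand of GRCm38.p6, from RefSeq.
Akr1c13: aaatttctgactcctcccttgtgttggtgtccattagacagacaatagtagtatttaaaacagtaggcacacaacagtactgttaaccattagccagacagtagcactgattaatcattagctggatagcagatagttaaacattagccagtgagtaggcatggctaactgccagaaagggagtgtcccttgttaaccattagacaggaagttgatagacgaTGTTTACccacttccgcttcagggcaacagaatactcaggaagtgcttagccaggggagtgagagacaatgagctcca

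Signals of Akr1c13 were 244.2, 440.2 and 524.7 in untreated Pik3cd+/- ovaries and 84.0, 47.0 and 69.5 after PMSG, so that the lowest untreated array was well above the highest treated one. The log2 difference was -2.41 ± 0.62, and leaving out 1 array gave between -2.73 and -2.19. Untreated Pik3cd-/- ovaries gave 372.7, 94.3 and 78.7 and Pik3cd-/- PMSG ovaries gave 66.5, 66.3 and 296.5. E2 arrays gave 183.9, 251.0 and 84.2 in Pik3cd+/- and 125.2, 298.5 and 86.6 in Pik3cd-/- ovaries. In each Pik3cd-/- group 1 array thus lay far above its mates. None of the remaining differences passed. E2 gave -1.24 ± 0.62 and 0.06 ± 0.62 in the heterozygous and null ovaries, and PMSG gave -0.33 ± 0.62 in the null ovaries (padj = 0.328, 0.967 and 0.809). The genotype differences were -1.38 ± 0.62 untreated, 0.70 ± 0.62 after PMSG and -0.08 ± 0.62 after E2 (padj = 0.224, 0.627 and 0.94). The E2 change in Pik3cd+/- ovaries and the genotype differences untreated and after PMSG reuse arrays of the fall already seen. Their padj values are therefore descriptions only. All neighbours in the order of means overlapped. Akr1c18, the 20-alpha-hydroxysteroid dehydrogenase that inactivates progesterone, was not called in any comparison, with 0.68 ± 0.29 and 0.22 ± 0.29 after PMSG in the 2 genotypes (padj = 0.108 and 0.709) and 0.94 ± 0.29 for untreated Pik3cd-/- against Pik3cd+/- ovaries (padj = 0.0847).

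Fmo2, a flavin-containing monooxygenase best known from lung, was highest in untreated Pik3cd-/- ovaries. The window of the second of its start sites is shown because it holds 2 of the motifs searched, a FoxO site and an NR5A half-site (capitals, beginning 28 and 10 bases before the start). It lies at chr1:162898444-162898743 on the minus strand of GRCm38.p6, from RefSeq.
Fmo2: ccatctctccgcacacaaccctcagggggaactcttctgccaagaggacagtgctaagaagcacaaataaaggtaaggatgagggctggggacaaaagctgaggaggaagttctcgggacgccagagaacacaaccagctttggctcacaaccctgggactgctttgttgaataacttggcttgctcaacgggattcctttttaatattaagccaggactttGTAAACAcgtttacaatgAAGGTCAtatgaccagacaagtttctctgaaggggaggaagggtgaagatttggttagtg

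Its signals were 213.6, 140.3 and 157.6 in untreated Pik3cd+/- and 364.4, 534.8 and 256.4 in untreated Pik3cd-/- ovaries. PMSG arrays gave 191.2, 158.3 and 102.2 in Pik3cd+/- and 142.8, 131.0 and 139.4 in Pik3cd-/- ovaries. E2 arrays gave 55.5, 76.6 and 74.4 against 178.2, 63.2 and 105.3. All 3 untreated Pik3cd-/- arrays lay above every other array in the study, and all 3 Pik3cd+/- E2 arrays lay below the untreated and PMSG arrays of both genotypes. The change after PMSG in Pik3cd-/- ovaries, by which the gene had already been seen, was -1.37 ± 0.31 (-1.62 to -1.10 with 1 array left out), against -0.19 ± 0.31 in Pik3cd+/- ovaries (padj = 0.707). E2 gave -1.20 ± 0.31 in Pik3cd+/- and -1.71 ± 0.31 in Pik3cd-/- ovaries, neither past the threshold (padj = 0.0637 and 0.0556). The latter passed without Pik3cd-/- untreated replicate 3 (-1.97, padj = 0.0449) or without Pik3cd-/- E2 replicate 1 (-2.06, padj = 0.0356). Between genotypes Fmo2 differed by 1.10 ± 0.31 untreated (padj = 0.0696), and by 1.35 (padj = 0.03) without Pik3cd-/- untreated replicate 3, but by -0.08 ± 0.31 after PMSG and 0.58 ± 0.31 after E2 (padj = 0.931 and 0.189). The E2 change in Pik3cd-/- ovaries and the untreated genotype difference reuse the untreated Pik3cd-/- arrays by which Fmo2 had been seen. The genotype difference after PMSG reuses the Pik3cd-/- PMSG arrays. These padj values, also those with 1 array left out, are therefore descriptions only. In the order of means only untreated Pik3cd+/- and untreated Pik3cd-/-, the highest, did not overlap. Of 4 other probe sets, 3 had the same sign in 9 of 9 comparisons and the last, with a mean signal of 10.3, in 6.

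Within groups Fmo2 went with the surface epithelium mean (r = 0.808 with group means taken off, 0.7 without Pik3cd-/- E2 replicate 2) and against the granulosa mean (-0.809 and -0.875). It also went with the stroma (0.742 and 0.58), endothelial (0.692 and 0.479), macrophage (0.656 and 0.418), adipocyte (0.633 and 0.337) and smooth muscle means (0.593 and 0.258). Over the 18 arrays the stroma mean correlated with Fmo2 at 0.746 and the surface epithelium mean at 0.562. After E2 in Pik3cd+/- ovaries 2 of 8 stroma markers fell (median -0.26), and no surface epithelium marker was called (median 0.09). Surface epithelium means ran from 7.57 to 7.74 in untreated Pik3cd+/- and from 8.02 to 8.59 in untreated Pik3cd-/- arrays, and 1 of 8 markers passed between these groups. After PMSG they ran from 7.58 to 8.14 and from 7.82 to 8.18, and after E2 from 7.64 to 7.93 and from 7.39 to 8.57. The part of any of these cells in the Fmo2 result was not tested.

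**Figure D3:**
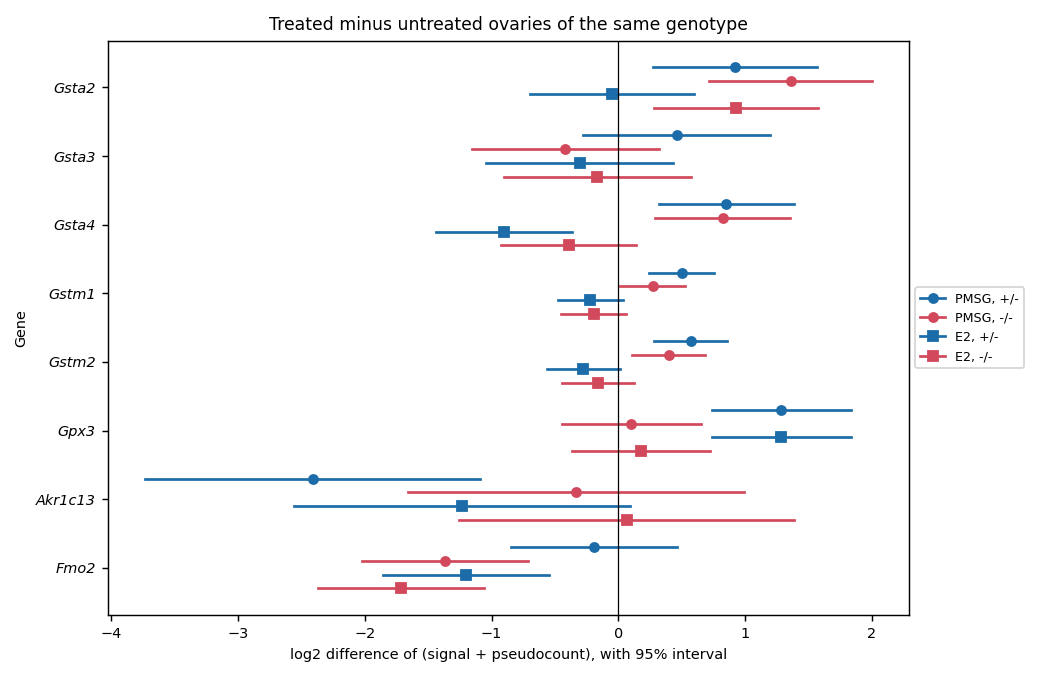
Log2 difference of treated minus untreated ovaries of the same genotype for each gene, with 95% intervals (circles PMSG, squares E2, blue Pik3cd+/-, red Pik3cd-/-). The intervals of Gsta2, Gsta4, Gstm1, Gstm2 and Gpx3 lie above 0 after PMSG in Pik3cd+/- ovaries, where Akr1c13 is at -2.41. That of Gpx3 (1.29) stands alone above 0 after E2 in Pik3cd+/- ovaries.

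Across the treatment comparisons, 5 of the 8 genes rose after PMSG in Pik3cd+/- ovaries, against 5.81% of all genes tested. Beside Akr1c13, described above without a test, none fell (11.9% of all genes). The 5 came to 1 without Pik3cd+/- untreated replicate 1, to 3 without untreated replicate 2 or 3 or PMSG replicate 3, and to 4 without PMSG replicate 1 or 2. The median was 0.53 for the 8 genes and -0.05 for all. In Pik3cd-/- ovaries 1 rose (Gsta2), against 1.71%, and beside Fmo2, also described without a test, none fell (0.684%), with medians of 0.19 and -0.01. After E2, 1 rose (Gpx3) and none fell in Pik3cd+/- ovaries, against 1.18% and 0.44%. In Pik3cd-/- ovaries none of the 8 was called by limma, with 2 of them and 1862 of the 12713 genes at an unadjusted p under 0.05, and 0.00787% of all genes rose and 0.0472% fell. The medians after E2 were -0.29 and -0.16 for the 8 genes and 0.00 and -0.05 for all. Arrays of treated and untreated ovaries did not overlap for 6 of the 8 genes after PMSG in Pik3cd+/- (40% of all genes) and for 5 in Pik3cd-/- ovaries (26.8%). After E2 they did not overlap for 4 in Pik3cd+/- (28.7%) and for 2 in Pik3cd-/- ovaries (13.3%). Both comparisons within a genotype share their untreated arrays. Since the 8 were chosen with results in view, these counts describe them and support nothing.

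**Figure D4:**
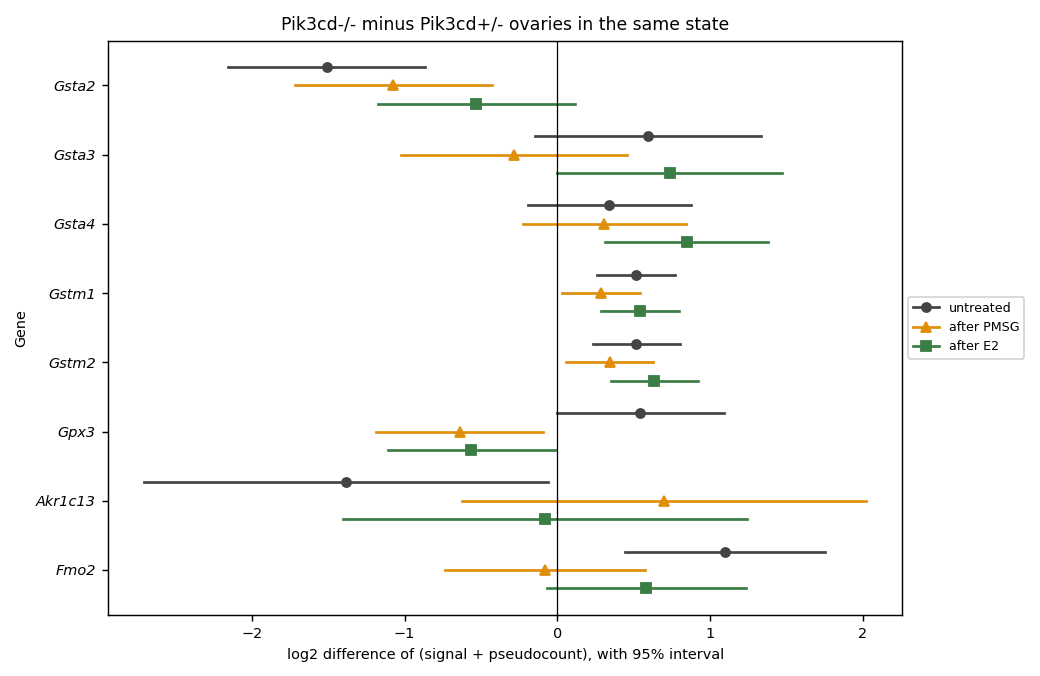
Log2 difference of Pik3cd-/- minus Pik3cd+/- ovaries for each gene in the same state, with 95% intervals (grey circles untreated, orange triangles PMSG, green squares E2). The intervals of Gstm1 and Gstm2 lie above 0 in all 3 states (differences of 0.29 to 0.63). Those of Gsta2 (differences of -1.51 to -0.53) lie below 0 untreated and after PMSG but span 0 after E2.

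Between genotypes, 1 of the 8 was higher (Gstm1) and 1 lower (Gsta2) in untreated Pik3cd-/- ovaries, against 0.834% and 1.34% of all genes. None was called by limma after PMSG, where 4 of the 8 and 2263 of the 12713 genes had an unadjusted p under 0.05 and 3.08% of all genes were called higher and 1.05% lower. After E2, 3 were higher (Gsta4, Gstm1 and Gstm2) and none lower, against 4.85% and 12%. This count was 2 without Pik3cd+/- E2 replicate 2 or 3 or Pik3cd-/- E2 replicate 1 or 2, and 0 with only the arrays of the comparison in the fit. The medians were 0.52, 0.10 and 0.56 for the 8 genes and -0.01, 0.01 and -0.07 for all. Arrays of the genotypes did not overlap for 6 of the 8 genes untreated (26.5% of all genes), for 4 after PMSG (27.9%) and for 5 after E2 (33.4%). Of the 12 calls in the 7 comparisons, not counting Akr1c13 and Fmo2 where they had been seen before, those of Gpx3 after PMSG and of Gstm1 and Gstm2 after E2 were the 3 that held with each array left out in turn.

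Whether a treatment acted differently in the genotypes was tested by the interaction terms, and none of the 8 genes and 0 of the 12713 (0%) passed in limma for either hormone. At an unadjusted p under 0.05 there were 1194 genes for PMSG and 924 for E2. The difference in the PMSG effect (Pik3cd-/- minus Pik3cd+/-) was -1.18 ± 0.36 for Gpx3, with a 95% interval from -1.96 to -0.41 (padj = 0.387). It was -1.18 ± 0.44 for Fmo2 (padj = 0.424) and 2.08 ± 0.88 for Akr1c13 (padj = 0.489), both genes seen earlier in 1 of the comparisons that enter it. For Gsta2, Gsta3, Gsta4, Gstm1 and Gstm2 it was 0.44, -0.88, -0.03, -0.23 and -0.17 (padj of 0.598 to 0.987). For E2 the difference was -1.11 ± 0.36 for Gpx3 (-1.88 to -0.33, padj = 0.595) and 0.98 ± 0.43 for Gsta2 (0.07 to 1.89, padj = 0.671). The other 6 lay between -0.51 (Fmo2) and 1.30 (Akr1c13), at padj of 0.742 to 0.978. A larger PMSG or E2 effect on any of the 8 in 1 genotype was therefore not shown.

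Of 117 related genes in the pathway lists, 93 were tested. After PMSG in Pik3cd+/- ovaries 20 rose and 3 fell (21.5% and 3.23%, against 5.81% and 11.9% of all genes). Of the 93, 8 rose in Pik3cd-/- ovaries (8.6% against 1.71%) and none fell (0.684% of all). After E2 2 rose in Pik3cd+/- ovaries (2.15% against 1.18%) and none fell (0.44% of all), and none was called in Pik3cd-/- ovaries, where 7 of the 12713 genes were called at all. Between genotypes 2 were higher and 2 lower untreated (2.15% each, against 0.834% and 1.34% of all genes). After PMSG 2 were higher and 1 lower (2.15% and 1.08% against 3.08% and 1.05%), and after E2 8 and 8 (8.6% each, against 4.85% and 12%). The median over the 93 genes lay between -0.08 (E2 in Pik3cd-/- ovaries, -0.05 for all genes) and 0.15 (PMSG in Pik3cd+/- ovaries, -0.05 for all). The lists were also chosen with earlier results of these data known, so these shares describe them and support nothing.

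Among the 17 other transferases tested, 3 rose after PMSG in Pik3cd+/- ovaries. Gstm7, of the same chromosome 3 run, rose by 1.36 ± 0.19 (padj = 5.08e-04) and by 0.88 ± 0.19 in Pik3cd-/- ovaries (padj = 0.0206). The microsomal Mgst1 rose by 0.40 ± 0.07 (padj = 0.00312) and Gstm3 by 0.44 ± 0.12 (padj = 0.0198) in Pik3cd+/- ovaries. After E2, Gstm3 (0.51 ± 0.12, padj = 0.0129) and Gstm6 (0.94 ± 0.27, padj = 0.0265) were higher in Pik3cd-/- than in Pik3cd+/- ovaries, as were Gstm1 and Gstm2. Gstm7 was not called in that comparison. The last gene of the run, Gstm4, named after its value was seen, was at -0.19 ± 0.12 in it (padj = 0.28). Gsta1 has no probe set annotated to it alone, so no result is given for it. Whether the probe set of Gsta2 also takes up signal from Gsta1 was not tested. Gsta2, Gsta4, Gstm2, Gpx3 and Akr1c13 each rest on 1 such probe set, with no second one as a check. Of the 5 other peroxidases tested, Gpx7, a peroxidase of the endoplasmic reticulum, was lower in Pik3cd-/- ovaries untreated (-0.87 ± 0.19, padj = 0.0299) and after E2 (-0.68 ± 0.19, padj = 0.0248), and no other was called.

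Of 15 genes of glutathione synthesis and recycling, 3 rose and 1 fell after PMSG in Pik3cd+/- ovaries. Ggt7, of the gamma-glutamyltransferase family, rose by 0.50 ± 0.08 (padj = 0.00104), and by 0.36 ± 0.08 in Pik3cd-/- ovaries (padj = 0.0207). Chac2, which degrades glutathione, rose by 0.87 ± 0.17 (padj = 0.00483), and the glutaredoxin Glrx fell by 0.56 ± 0.15 on the log2 scale (padj = 0.0183). Glrx was higher in Pik3cd-/- than in Pik3cd+/- ovaries after PMSG (0.56 ± 0.15, padj = 0.0448) and after E2 (0.57 ± 0.15, padj = 0.0195). The mitochondrial Glrx2 was lower in both states (-0.27 ± 0.06 and -0.33 ± 0.06, padj = 0.0308 and 0.00593). Ggct, which forms oxoproline, was higher in Pik3cd-/- ovaries after E2 (0.88 ± 0.23, padj = 0.0196).

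The list of Nrf2-regulated and antioxidant enzymes had 4 rises and 1 fall of 19 after PMSG in Pik3cd+/- ovaries. Sulfiredoxin (Srxn1) rose by 0.61 ± 0.10 (padj = 0.00139) and malic enzyme (Me1), a source of NADPH, by 1.09 ± 0.20 (padj = 0.00312). Pgd, of the pentose phosphate pathway, rose by 0.37 ± 0.08 (padj = 0.00588). In Pik3cd-/- ovaries Srxn1 rose by 0.52 ± 0.10 (padj = 0.0122) and Pgd by 0.34 ± 0.08 (padj = 0.0304). Pgd also rose after E2 in Pik3cd+/- ovaries (0.51 ± 0.08, padj = 0.00644), and was lower in Pik3cd-/- ovaries after E2 (-0.52 ± 0.08, padj = 0.00177), as were thioredoxin (Txn1, -0.23 ± 0.06, padj = 0.0209) and Prdx4 (-0.35 ± 0.12, padj = 0.0467). In untreated ovaries Prdx4 was lower (-0.55 ± 0.12, padj = 0.0288) and Osgin1 higher (0.59 ± 0.13, padj = 0.0365) without Pik3cd.

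Of 10 other aldo-keto reductases 4 rose and 1 fell after PMSG in Pik3cd+/- ovaries. Akr1b8 rose by 0.54 ± 0.15 (padj = 0.0199) and by 0.63 ± 0.15 in Pik3cd-/- ovaries (padj = 0.0307). Akr7a5 fell by 0.28 ± 0.06 on the log2 scale (padj = 0.00961) and was higher in Pik3cd-/- than in Pik3cd+/- PMSG ovaries (0.31 ± 0.06, padj = 0.0149). Akr1a1 rose by 0.15 ± 0.04 (padj = 0.0169). The 2 other flavin-containing monooxygenases tested, Fmo1 and Fmo5, were not called in any comparison (both named after their values were seen).

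Among 25 other detoxifying enzymes 6 rose after PMSG in Pik3cd+/- and 3 in Pik3cd-/- ovaries. Aldh1a7, an aldehyde dehydrogenase, rose by 1.98 ± 0.26 and 1.53 ± 0.26 (padj = 4.37e-04 and 0.0072), and the epoxide hydrolase Ephx1 by 0.64 ± 0.15 and 0.95 ± 0.15 (padj = 0.00892 and 0.00333). Aldh3b1 rose by 0.65 ± 0.15 in Pik3cd+/- ovaries (padj = 0.00898). Cyp1b1, which hydroxylates oestrogens, rose after PMSG in Pik3cd-/- (0.54 ± 0.12, padj = 0.0243) and after E2 in Pik3cd+/- ovaries (0.52 ± 0.12, padj = 0.0374). After E2 it was lower in Pik3cd-/- than in Pik3cd+/- ovaries (-0.88 ± 0.12, padj = 0.00113), as was Aldh3a2 (-0.49 ± 0.11, padj = 0.0102), while Aldh9a1 was higher (0.43 ± 0.08, padj = 0.00424). Untreated Pik3cd-/- ovaries also had more Aldh9a1 (0.32 ± 0.08, padj = 0.0478).

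The 8 genes did not share 1 profile. Over the 18 arrays Gsta4 correlated with Gstm2 and Gstm1 at r = 0.897 and 0.852, but at 0.635 and 0.405 with group means taken off. Akr1c13 and Gpx3 had r = -0.631, and Gsta2 and Fmo2 -0.563. The genes outside the 8 with the most similar profiles over the 18 arrays were Sybu (r = 0.963, Spearman 0.926) and Rasd1 (0.951, 0.876) for Gsta4. Dcaf12l1 (0.942, 0.944) and Srgap3 (0.938, 0.95) were closest to Gstm1, and Dcaf12l1 (0.953, 0.936) and Rasd1 (0.95, 0.942) to Gstm2. For Fmo2 they were Igf2 (0.922, 0.787) and Adcyap1r1 (0.914, 0.814), and for Gpx3 Sfxn3 (0.915, 0.878) and Myof (0.882, 0.866). Zfp711 (0.931, 0.953) and Serp1 (0.927, 0.88) were closest to Gsta2, Rab5c (0.852, 0.785) and Zfp963 (0.828, 0.895) to Gsta3, and Asb13 (0.825, 0.759) and B4galt6 (0.78, 0.765) to Akr1c13. The points are 6 groups of 3 arrays and share array and group differences, so these values are descriptions only.

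Promoter windows from RefSeq were given for 7 of the 8 genes, 9 windows in all counting 2 start sites each for Gstm1 and Fmo2, and not for Gsta4. Each was searched on both strands for the core of the antioxidant response element (TGACNNNGC), the NR5A half-site bound by steroidogenic factor 1 and its relative (AAGGTCA), the palindromic oestrogen response element of 13 letters and the FoxO site (GTAAACA). The NR5A half-site contains the half-site of the oestrogen response element. Of 32851 promoter windows of the same length, 12.4% held the first, 4.72% the second, 0.07% the third and 3.65% the last. Besides the matches in Akr1c13 and Fmo2, Gsta3 held 1 antioxidant element core, TGACATTGC, beginning 121 bases before its start. These letters were not found in the windows of Gsta2, Gstm1, Gstm2 and Gpx3 or in that of the first Fmo2 start site. A match describes the letters and not a bound site.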

How the data were processed

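The deposited series table held 1 intensity value on a linear scale for each of 45101 probe sets on each of 18 arrays. The submitters' processing notes name MAS5 with no version, and the scaling the authors used is not given in the sources used here. Gene names came from the platform annotation, in which 34945 probe sets had 1 symbol, 932 several and 9160 none. These last 2 kinds and 64 control probe sets were left out of the gene tests. Per gene the brightest probe set over all arrays was used. Intensities were tested as log2 of the value plus 8.58, the 10th percentile of all values, with no further normalization. A gene was tested if at least 1 group mean exceeded 5.87, the median, which left 12713 genes.

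The 6 groups were fitted together in limma 3.58.1 (R 4.3.3), by lmFit and contrasts.fit and with a mean trend in eBayes, which left 12 residual and 3.66 prior degrees of freedom. Tests were two-sided and adjusted by Benjamini and Hochberg over 12713 genes in each of 9 comparisons, with a threshold of 0.05, and were tested on simulated data. P-values set a difference between groups against the spread between arrays of a group, which may be partly technical. The members and gene lists were chosen with earlier results of these data known. Named genes were the 8 members, up to 3 called genes with the smallest adjusted p per pathway list and comparison, Akr1c18 and Gsta1 whatever their result, and the 2 genes most correlated with each member. Tried in turn were pseudocounts of 1 and 64, eBayes without trend, quantile normalization, dropping the filter or raising it to the 70th percentile, the replicate number as a block, the probe set of highest variance, only the groups of the comparison, and each array left out. Promoters came from the RefSeq table of GRCm38.p6, used for names, gene order and promoter windows only.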

Additional observations from a re-analysis of the deposited data

How the results depend on the processing

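The 72 values of the 8 genes kept their direction under every alternative that used all arrays, apart from Gstm1 after E2 in Pik3cd-/- ovaries, which was 0.39 with the probe set of highest variance. Gsta3 had no value under the filter at the 70th percentile. Leaving out 1 array kept the direction of the 12 calls and of the 2 falls described without a test. It turned that of 14 differences that had not passed: Akr1c13 after PMSG (-1.01 to 0.34) and E2 (-0.42 to 0.73) in Pik3cd-/- ovaries and between genotypes after E2 (-0.56 to 0.28), Fmo2 after PMSG in Pik3cd+/- ovaries (-0.38 to 0.049) and between genotypes after PMSG (-0.32 to 0.10), and Gpx3 after PMSG (-0.038 to 0.29) and E2 (-0.12 to 0.57) in Pik3cd-/- ovaries. The others were Gsta2 after E2 in Pik3cd+/- (-0.19 to 0.12) and Gsta3 after E2 in Pik3cd-/- ovaries (-0.55 to 0.22), the PMSG interactions of Gsta2 (-0.069 to 0.82) and Gsta4 (-0.32 to 0.38), and the E2 interactions of Gsta3 (-0.24 to 0.52), Gstm1 (-0.14 to 0.13) and Gstm2 (-0.026 to 0.26).

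The count of genes called moved more. With 1 array left out it ran from 872 to 2410 for PMSG in Pik3cd+/- (2255 with all arrays) and from 86 to 386 in Pik3cd-/- ovaries (304), from 33 to 110 for E2 in Pik3cd+/- (206) and from 2 to 24 in Pik3cd-/- ovaries (7). Between genotypes it ran from 1 to 678 untreated (276), from 82 to 384 after PMSG (525) and from 646 to 2971 after E2 (2141), and for the interactions from 0 to 4 (PMSG) and from 0 to 71 (E2). Quantile normalization gave 485 for PMSG in Pik3cd-/- ovaries, 425 for the untreated genotypes, 3 for E2 in Pik3cd-/- ovaries and 3 for the PMSG interaction. It moved the share of higher calls from 28.8% to 43.9% for the genotypes after E2 and from 14.3% to 33.3% for E2 in Pik3cd-/- ovaries. With only the groups of the comparison the counts were 779 for E2 in Pik3cd+/- and 0 in Pik3cd-/- ovaries, 95, 980 and 106 for the genotypes untreated, after PMSG and after E2, and 1 for the E2 interaction. In that fit the E2 genotype calls of Gstm1, Gstm2 and Gsta4 ended (padj = 0.0989, 0.0847 and 0.0675), as did those of Gsta4 after PMSG in Pik3cd+/- ovaries (0.0875), Gsta2 after PMSG in Pik3cd-/- ovaries (0.122) and Gsta2 and Gstm1 in untreated ovaries (0.0966 and 0.0575). Gsta2, Gstm1 and Gpx3 passed between genotypes after PMSG (0.00371, 0.0223 and 0.0359), and Gsta4 after PMSG in Pik3cd-/- (0.0118) and Gsta4 and Fmo2 after E2 in Pik3cd+/- ovaries (0.0215 and 0.00967) did too. A pseudocount of 64 gave 2 for the PMSG interaction, no filter gave 2 and the probe set of highest variance 16 for E2 in Pik3cd-/- ovaries. The cause of these shifts was not tested.

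The Gsta2 call after PMSG in Pik3cd+/- ovaries also ended with a pseudocount of 1 (padj = 0.0594) and with no filter (0.0605). Those of Gstm1 ended with the probe set of highest variance (0.144 after PMSG, 0.596 untreated), and the untreated one without trend in eBayes (0.0507). A pseudocount of 64 let Gsta2 between genotypes after PMSG (0.0217) and Fmo2 after E2 in Pik3cd-/- ovaries (0.0468) pass. This Fmo2 change also passed with the probe set of highest variance (0.0381). Gstm2 between untreated genotypes passed with the filter at the 70th percentile (0.0471). Replicate numbers do not pair the arrays: 11 of 45 same-number pairs correlated above 0.1 (-0.34 to 0.34), and 5 of 18 arrays were closest to their own number. With the replicate number as a block, 2 genes were called for E2 in Pik3cd-/- ovaries and 1 for the E2 interaction, Gstm1 between untreated genotypes had padj = 0.0553 and Gsta2 between genotypes after PMSG 0.0399. The other 70 values of the 8 genes kept their side of the threshold.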
